A study of Mus musculus with 6 samples.

Results

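Hedgehog signalling was examined in mouse gastruloids, aggregates of embryonic stem cells (ESCs) that elongate and lay down an anteroposterior axis, through 9 genes: the ligand genes *Shh* and *Ihh*, the co-receptor gene *Gas1*, the receptor genes *Ptch1* and *Smo*, the ligand-binding inhibitor gene *Hhip*, and the transcription factor genes *Gli1*, *Gli2* and *Gli3*. The genes were chosen by symbol as ligands, receptors, Gli factors and targets of the pathway, and all 9 were found among the 35565 gene identifiers of the count table. Of these 9, 7 passed the filter on low counts, as did 15110 genes of the table, and *Shh* and *Ihh* did not. Bulk RNA-seq at day 5 covered 3 Control (NT) libraries and 3 libraries of KD-1 gastruloids, silenced for *T-UCstem1*, all from the mouse ESC line TBV2 129/SvP. *T-UCstem1* belongs to the long non-coding RNAs that carry an ultraconserved element. KD-1 is a single clone, and Control (NT) carries a non-targeting construct, although the sample labels call its genotype wild type. According to the study's methods, both groups received CHIR99021, an inhibitor of the kinase GSK3 that activates WNT signalling. With a single line in each group, other differences between the lines cannot be told apart from the silencing, and the p-values measure the spread among libraries of those lines. Silencing of *T-UCstem1* was not checked here.

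In the absence of ligand, Patched receptors hold the membrane protein Smoothened inactive, and Gli2 and above all Gli3 are processed into repressors in a manner that depends on the primary cilium. Ligand binding, helped by the co-receptors Gas1, Cdon and Boc, releases Smoothened and turns the Gli proteins into activators. *Gli1* and *Ptch1* are themselves transcribed in response, which makes them the customary readout of the pathway, while Patched and Hhip also bind ligand and limit its reach. In the embryo Shh from the node, notochord and floor plate patterns the somites and the neural tube, where it promotes sclerotome and ventral neural fates.

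The libraries held between 20982249 and 85561026 counts. A count of 0 allows up to 0.143 CPM (counts scaled by library size) in the shallowest and 0.0351 in the deepest, taking 3 counts as the limit, for counting error only. Levels are CPM of the TMM-normalized library size, and libraries are named by their depth within the group because the columns could not be matched to replicate numbers. A gene was called when its edgeR quasi-likelihood test had an adjusted p under 0.05 and it rose or fell by more than about 1.5-fold, the study's threshold. Calls were made for 37.8% of the 15110 genes tested, 19.7% with a rise in KD-1 and 18.1% with a fall, and 70.6% had groups that did not overlap, so a call is common in this comparison.

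Among the 7 Hedgehog genes tested, *Gli1* and *Ptch1* rose in KD-1, *Smo* and *Gas1* fell, and *Gli2*, *Gli3* and *Hhip* were not called. Thus 2 rose and 2 fell, against shares of 19.7% and 18.1% over all genes, and their median log2 fold change was 0.02, against -0.01 over all genes tested. The groups did not overlap for 5 of the 7, where 70.6% of all genes did not. In bulk RNA, fewer cells of a type and less RNA per cell cannot be told apart for any of these genes.

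**Figure D1:**
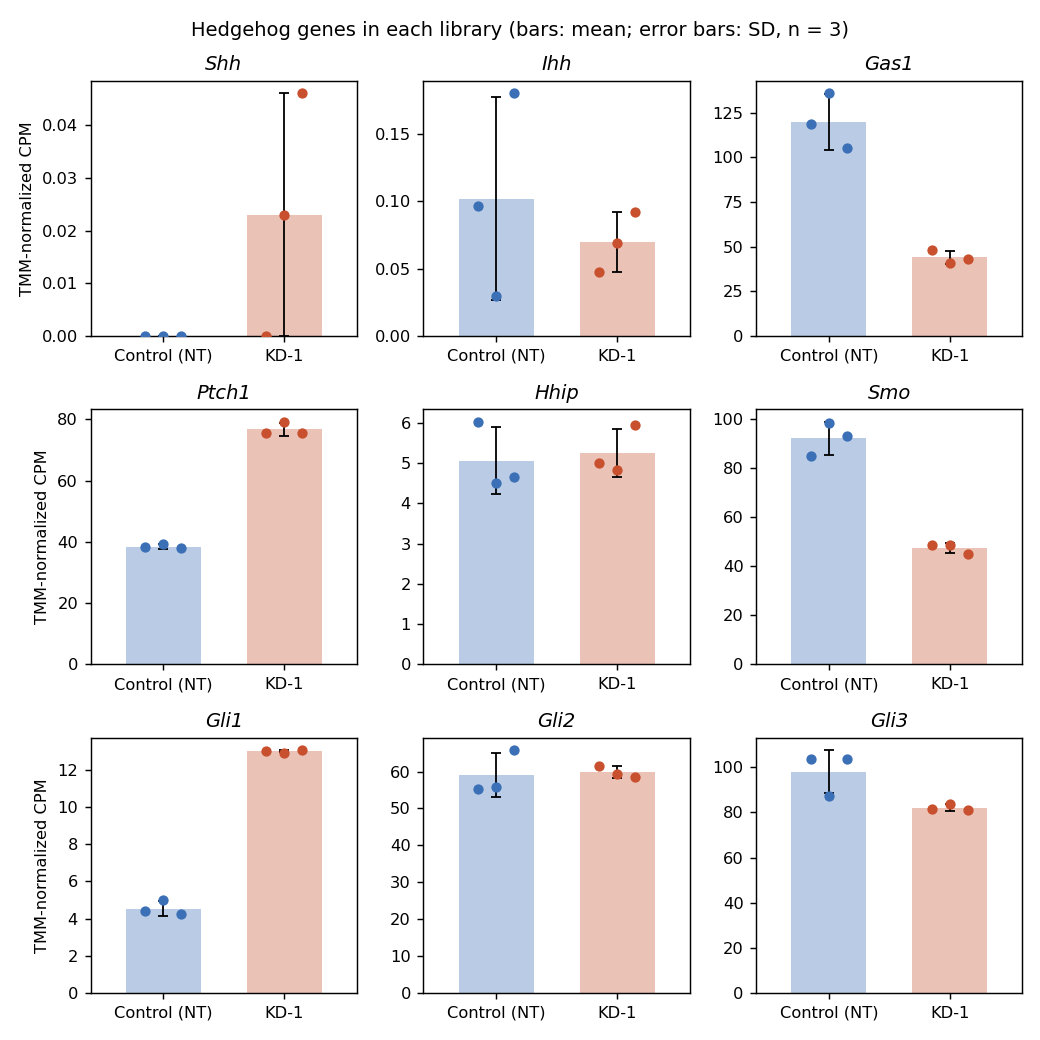
TMM-normalized CPM of the 9 Hedgehog genes in each library (points), with group means (bars) and SD (error bars, n = 3); each panel has its own axis from 0. *Gli1* and *Ptch1* lie higher and *Smo* and *Gas1* lower in every KD-1 library, and *Shh* and *Ihh* stay below 0.2 CPM.

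The ligand genes were near the limit of detection. *Shh*, which encodes Sonic hedgehog (chromosome 5, 28661813 to 28672254, minus strand, GRCm39), had 0 counts in each Control (NT) library and 0, 1 and 4 counts in the lowest, middle and highest depth KD-1 libraries. Summed over each group, this is 0 of 112351561 counts, which allows up to 0.0267 CPM, and 5 of 169148588 counts, or 0.0296 CPM with an exact 95% binomial interval of 0.0096 to 0.069. A difference was therefore not detectable at this depth. *Ihh*, the Indian hedgehog gene (chromosome 1, 74984474 to 74990837, minus strand), had 2, 1 and 10 counts in the Control (NT) libraries and 2, 3 and 8 counts in those of KD-1, which is 0.116 CPM with an interval of 0.0616 to 0.198 and 0.0769 CPM with an interval of 0.0409 to 0.131. The intervals overlap, and most counts came from the deepest library of each group. The third mammalian ligand gene, *Dhh* (desert hedgehog), had 7, 0 and 2 counts in the Control (NT) libraries and 5, 10 and 17 counts in those of KD-1, or 0.0801 and 0.189 CPM of the summed counts with intervals of 0.0366 to 0.152 and 0.129 to 0.267. Its groups overlap, because the shallowest Control (NT) library has the highest level of the 6, and it did not pass the filter on low counts either. The binomial intervals of the ligand genes are for counting error only and leave out the spread between libraries.

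Of the genes for ligand acylation and release, *Hhat*, which encodes the acyltransferase that adds palmitate to the ligand, was not called, and its log2 fold change of 0.18 (95% interval -0.65 to 1.02) was loosely bounded. It lies on chromosome 1, and relative to the median log2 fold change of 0.49 there its value was -0.31. *Disp1* and *Scube3* fell, whereas *Scube1* and *Scube2* rose. Dispatched, the product of *Disp1*, exports the lipid-modified ligand, and secreted Scube proteins carry it away from the membrane. *Disp1* went from 12.6 ± 0.944 to 6.83 ± 0.782 CPM (SD, n = 3) with a log2 fold change of -0.89, or -1.39 relative to the same median, since it lies on chromosome 1 too. *Scube3* changed by -1.09 and *Scube1* and *Scube2* by 0.83 and 1.19 on the same scale, with *Scube2* rising from 8.90 ± 1.43 to 20.5 ± 0.681 CPM.

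*Ptch1*, the main receptor and a transcriptional target of the pathway (chromosome 13, 63656142 to 63721412, minus strand), had 38.2, 39.3 and 37.9 CPM in the lowest, middle and highest depth Control (NT) libraries and 75.7, 79.2 and 75.5 CPM in the KD-1 libraries. Every KD-1 library lay far above every Control (NT) library, and the SD was 0.718 and 2.11 CPM (n = 3). The log2 fold change was 1.00 (standard error 0.06, edgeR adjusted p = 1.61e-06), with a 95% interval from 0.87 to 1.13. *Hhip*, whose product binds ligand at the cell surface (chromosome 8, 80692480 to 80784658, minus strand), had 6.03, 4.50 and 4.66 CPM in Control (NT) and 5.01, 4.83 and 5.94 CPM in KD-1. The groups overlap over nearly their whole range, and the log2 fold change of 0.08 had an interval of -0.28 to 0.43. *Hhip* is a transcriptional target in many tissues, and its interval here ended below the lower bound of 0.87 for *Ptch1*. *Gpc3*, a glypican that competes with Patched for ligand, had the largest fall of the pathway genes listed, from 219 ± 6.98 to 47.2 ± 1.23 CPM (SD, n = 3), a log2 fold change of -2.22.

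The co-receptors fell with the exception of *Lrp2*. *Gas1*, a GPI-anchored protein that presents ligand to Patched (chromosome 13, 60322219 to 60325179, minus strand), had 119, 136 and 105 CPM in Control (NT) and 47.9, 40.9 and 43.2 CPM in KD-1. The lowest Control (NT) library was still above the highest KD-1 library by more than the range of either group. The log2 fold change was -1.44 (standard error 0.10, edgeR adjusted p = 5.61e-06). *Boc* and *Cdon*, which encode the immunoglobulin-family co-receptors, changed by -1.41 and -1.005 on the log2 scale, *Boc* from 76.9 ± 4.82 to 29.0 ± 0.524 CPM and *Cdon* from 94.8 ± 16.6 to 47.2 ± 0.770 CPM (SD, n = 3). By contrast *Lrp2*, which encodes megalin, an endocytic receptor that binds Shh in the forebrain, rose from 16.1 ± 6.58 to 57.0 ± 0.503 CPM (SD, n = 3), a log2 fold change of 1.83. The middle depth Control (NT) library stood apart for 2 of these genes, with 8.56 CPM of *Lrp2* against 20.8 and 18.8, and 75.7 CPM of *Cdon* against 105 and 104. Without it the log2 fold changes were 1.53 for *Lrp2* and -1.15 for *Cdon*, and both genes were called.

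*Smo* encodes Smoothened, the membrane protein through which every ligand acts (chromosome 6, 29735407 to 29762532, plus strand). It had 84.9, 98.5 and 93.2 CPM in Control (NT) and 48.7, 48.8 and 45.2 CPM in KD-1. All KD-1 libraries lay below all Control (NT) libraries, and the log2 fold change was -0.96 (standard error 0.07, edgeR adjusted p = 7.56e-06). *Mosmo*, whose product lowers the amount of Smoothened at the cilium, rose with a log2 fold change of 0.80. *Evc* and *Evc2*, whose products carry the signal of Smoothened at the base of the cilium, rose together with log2 fold changes of 1.11 and 1.38, *Evc2* from 3.12 ± 0.564 to 8.09 ± 0.159 CPM (SD, n = 3). *Gpr161*, a ciliary receptor that keeps protein kinase A active and so restrains the pathway, was called higher at a log2 fold change of 0.61, close to the threshold. The call was lost without the lowest or the middle depth Control (NT) library or the middle depth KD-1 library, at 0.58, 0.52 and 0.58. It lies on chromosome 1, where 871 genes were tested and had a median log2 fold change of 0.49, and its value relative to that median was 0.12 (edgeR adjusted p = 0.335).

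The Gli genes moved unequally. *Gli1*, an activator and a direct target (chromosome 10, 127165751 to 127177865, minus strand), had 4.39, 4.97 and 4.24 CPM in Control (NT) and 13.0, 12.9 and 13.0 CPM in KD-1. The KD-1 libraries were nearly identical and all above the Control (NT) libraries, and the log2 fold change was 1.52 (standard error 0.10, edgeR adjusted p = 4.57e-06), a rise of 2.87-fold. An opposite-strand gene of the table, *Arhgap9*, overlaps *Gli1*, and the use of strand in counting is not given in the sources used here. *Arhgap9* itself had between 28 and 63 counts in a library, fewer than the 91 to 1133 counts of *Gli1*. *Gli3*, the main repressor (chromosome 13, 15637809 to 15904611, plus strand), had 104, 87.1 and 104 CPM in Control (NT) and 81.6, 83.7 and 80.9 CPM in KD-1. The groups do not overlap, but the gap to the middle depth Control (NT) library was small. Its log2 fold change of -0.26 (standard error 0.08, edgeR adjusted p = 0.0157) had a 95% interval of -0.43 to -0.08, and it was not called because its fold change did not reach the threshold. *Gli2*, activator and repressor (chromosome 1, 118761858 to 118982598, minus strand), had 55.4, 55.9 and 65.8 CPM in Control (NT) and 61.6, 59.4 and 58.5 CPM in KD-1. The KD-1 values lie inside the Control (NT) range, with a log2 fold change of 0.02 (95% interval -0.16 to 0.19, edgeR adjusted p = 0.867). It lies on chromosome 1 too, and relative to the median of 0.49 there its log2 fold change was -0.47 (edgeR adjusted p = 0.000802), so that the direction for *Gli2* depends on whether the shift of its chromosome is taken off. *Ptch1*, *Gas1* and *Gli3* share chromosome 13, whose median was 0.18. Relative to it their values were 0.81, -1.63 and -0.44, in the same directions.

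**Figure D2:**
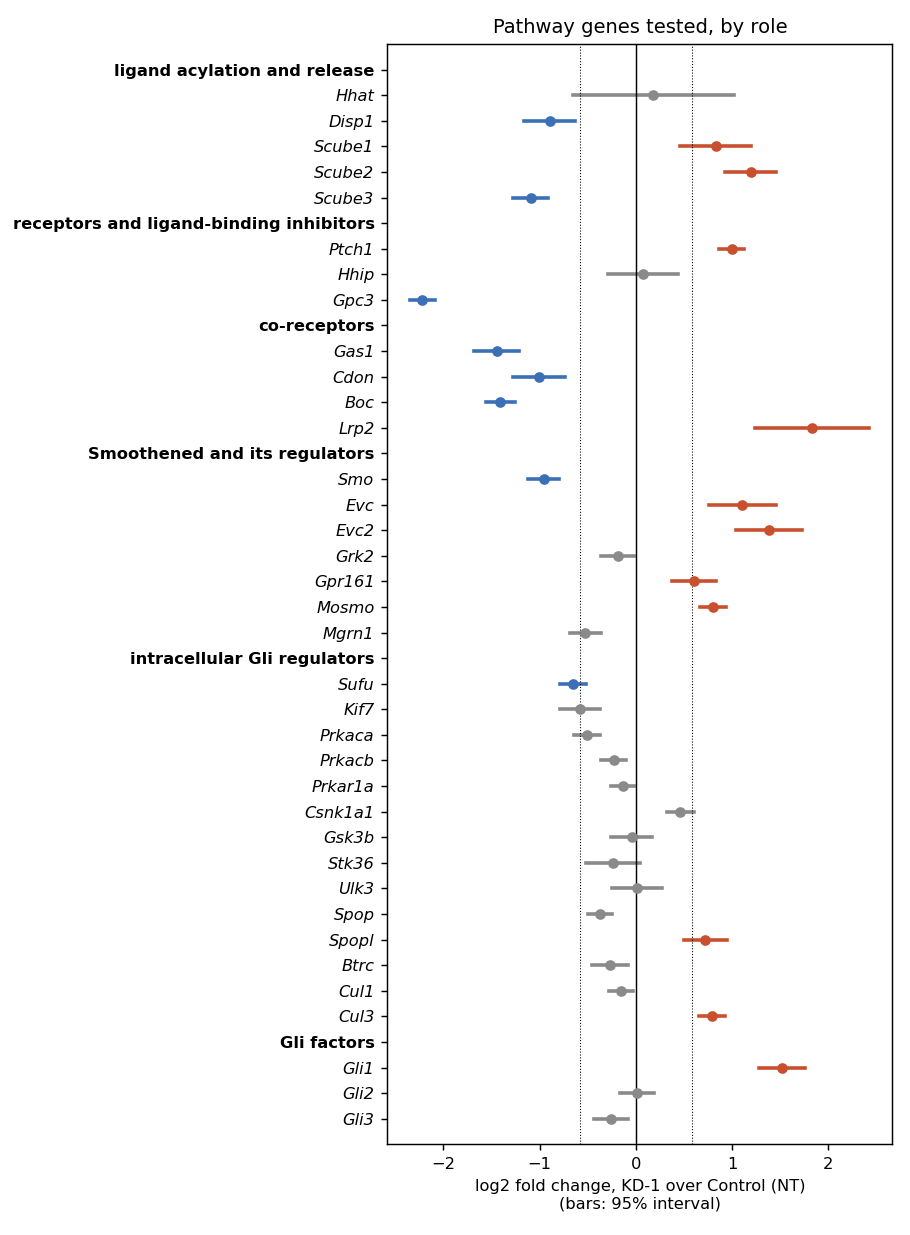
Log2 fold change of KD-1 over Control (NT) with its 95% interval for pathway genes tested, by role; red genes were called higher, blue genes lower and grey genes neither, and dotted lines mark the fold change thresholds. *Ptch1*, *Evc*, *Evc2* and *Gli1* lie to the right, and *Gas1*, *Cdon*, *Boc*, *Smo* and *Gpc3* to the left.

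Levels of different genes were compared per kilobase of merged exons. In Control (NT), *Gas1* was highest at 40.5 ± 5.24 CPM per kilobase, followed by *Smo* at 10.4 ± 0.776, *Gli3* at 9.80 ± 0.953, *Gli2* at 7.32 ± 0.730, *Ptch1* at 2.61 ± 0.0487, *Gli1* at 0.904 ± 0.0771 and *Hhip* at 0.472 ± 0.0784 (SD, n = 3). Only *Smo* and *Gli3* among these neighbours had overlapping libraries. In KD-1, *Gas1* was still highest at 14.9 ± 1.198 CPM per kilobase, and *Gli3* at 8.20 ± 0.146, *Gli2* at 7.42 ± 0.196, *Smo* at 5.39 ± 0.229, *Ptch1* at 5.21 ± 0.143, *Gli1* at 2.59 ± 0.0128 and *Hhip* at 0.490 ± 0.0557 followed (SD, n = 3). Here *Smo* and *Ptch1* were the neighbours whose libraries overlapped, and with the longest transcript as the length *Smo* stood above *Gli2* at 8.90 against 8.37 CPM per kilobase. The ratio of *Ptch1* to *Smo* in CPM per kilobase was 0.270, 0.239 and 0.244 in the Control (NT) libraries and 0.932, 0.975 and 1.00 in the KD-1 libraries. It moved from 0.251 ± 0.0167 to 0.969 ± 0.0352 (SD, n = 3), since its numerator rose and its denominator fell. With the longest transcript as the length the ratio was 0.216 ± 0.0143 and 0.832 ± 0.0302 (SD, n = 3), so its absolute value depends on the length used.

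Within the Gli family, *Gli1* made up 4.84%, 5.96% and 4.36% of the summed level per kilobase in the Control (NT) libraries and 14.1%, 14.1% and 14.5% in the KD-1 libraries. *Gli3* went from 54.3% ± 2.54 to 45.0% ± 0.660, while *Gli2* stayed at 40.6% ± 2.29 and 40.7% ± 0.695 (SD, n = 3). The libraries of the groups overlap for the share of *Gli2* and for neither of the others. Among the co-receptors, *Gas1* supplied 59.9% ± 5.00 in Control (NT) and 50.6% ± 2.06 in KD-1, and *Lrp2* went from 1.44% ± 0.623 to 11.6% ± 0.523 (SD, n = 3). Shares of the ligand genes rest on too few counts to be ordered.

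**Figure D3:**
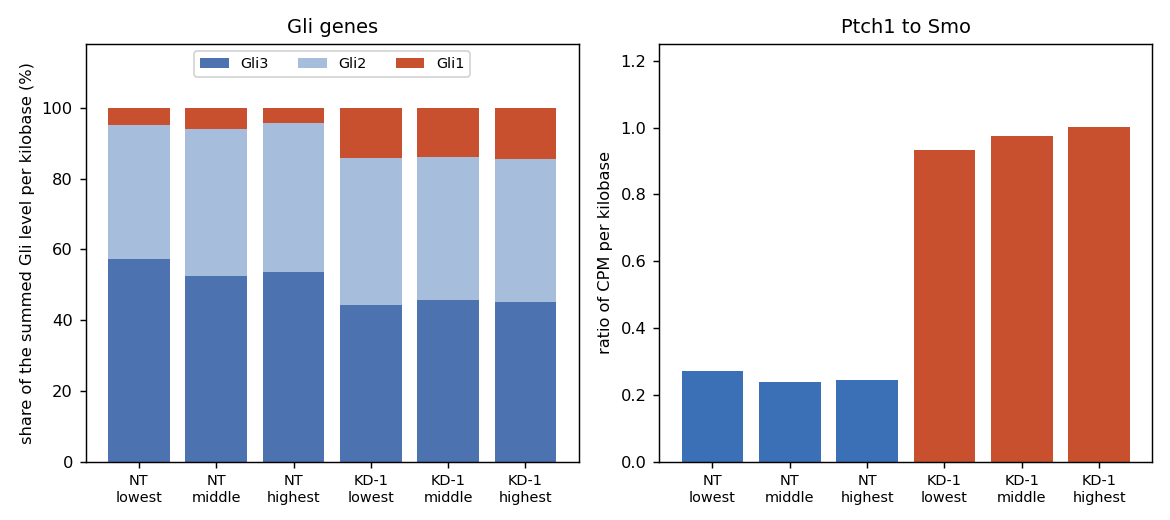
Left, share of *Gli1*, *Gli2* and *Gli3* in their summed CPM per kilobase of merged exons, per library (NT: Control; lowest, middle and highest depth). Right, ratio of *Ptch1* to *Smo* in CPM per kilobase of merged exons, which is 0.270 or less in the Control (NT) libraries and 0.932 or more in the KD-1 libraries.

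Of the 14 intracellular regulators tested, 2 rose, 1 fell and 11 were not called, a called share of 21.4% beside 37.8% over all genes, with a median log2 fold change of -0.19. *Sufu*, which encodes the inhibitor that retains Gli proteins in the cytoplasm, fell from 37.2 ± 0.134 to 23.7 ± 0.324 CPM (SD, n = 3), a log2 fold change of -0.65. Its call was lost under 3 of 18 alternatives. Relative to the median of -0.10 on its chromosome 19 its value was -0.55, short of the fold threshold. *Kif7*, a kinesin that organizes the ciliary tip, had a log2 fold change of -0.58 (edgeR adjusted p = 0.000616) and was not called, since its fold change of 0.670 is just inside the threshold. It was called without the lowest or the highest depth Control (NT) library, at -0.62 and -0.61. *Cul3* and *Spopl*, members of a ubiquitin ligase that turns over Gli proteins, rose with log2 fold changes of 0.79 and 0.72. *Cul3* lies on chromosome 1, and its value relative to the median there was 0.30. Taking all pathway genes other than the 9, 10 of the 31 tested rose and 7 fell, a called share of 54.8% beside 37.8% over all genes, and their median log2 fold change was -0.15.

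Windows of 300 bases around the start of 7 of the 9 genes were found among the RefSeq promoters (GRCm38.p6), and the 250 bases before the start are shown for the called genes among them, *Ptch1*, *Gas1* and *Smo*. *Shh* and *Gli1* were not searched. CpG dinucleotides are in capitals, and the sequences run 5′ to 3′ on the strand of the gene: *Ptch1* at chr13:63565736-63565985 (minus strand), *Gas1* at chr13:60177536-60177785 (minus strand) and *Smo* at chr6:29735247-29735496 (plus strand).
Ptch1: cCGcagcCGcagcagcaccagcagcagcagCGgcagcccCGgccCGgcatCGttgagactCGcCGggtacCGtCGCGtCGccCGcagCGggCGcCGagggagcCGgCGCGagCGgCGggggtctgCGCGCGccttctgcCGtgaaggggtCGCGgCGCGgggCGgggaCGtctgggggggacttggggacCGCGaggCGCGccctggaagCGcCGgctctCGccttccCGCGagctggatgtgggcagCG
Gas1: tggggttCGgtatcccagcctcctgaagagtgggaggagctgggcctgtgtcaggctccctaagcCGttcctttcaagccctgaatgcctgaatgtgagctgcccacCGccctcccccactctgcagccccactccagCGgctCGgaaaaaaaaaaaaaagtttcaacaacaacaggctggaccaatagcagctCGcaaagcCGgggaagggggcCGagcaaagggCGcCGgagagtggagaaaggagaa
Smo: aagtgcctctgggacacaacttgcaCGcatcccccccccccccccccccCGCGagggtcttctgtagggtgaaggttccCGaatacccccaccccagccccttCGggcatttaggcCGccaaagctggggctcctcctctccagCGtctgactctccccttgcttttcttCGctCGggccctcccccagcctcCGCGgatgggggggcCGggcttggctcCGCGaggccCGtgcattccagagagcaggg
The *Ptch1* stretch holds 41 CpG dinucleotides and 78.4% G and C, the *Smo* stretch 15 and 68.4%, and the *Gas1* stretch 10 and 58.8%, against medians of 6 and 52.4% over the 32851 promoters of the table. The stretches of the uncalled *Gli3*, *Hhip* and *Gli2* and of the untested *Ihh* hold 34, 28, 22 and 24, so CpG number does not order the genes by call. The Gli consensus GACCACCCA, searched on either strand, occurs in 0.253% of the 300-base windows of the table and in none of the 7 members' windows, which says only that these letters are not in these windows.

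Among mesodermal genes known to respond to Hedgehog in the embryo, *Pax9* fell and *Bmp4* rose, and *Pax1* and *Foxf1* were near 0 in KD-1. *Pax1*, a sclerotome factor, had 2.32, 4.50 and 3.05 CPM in Control (NT) and 0.0716, 0 and 0.0230 CPM in KD-1, the latter from 3, 0 and 2 counts. *Pax9*, its partner in the sclerotome, fell from 6.94 ± 0.695 to 0.997 ± 0.291 CPM (SD, n = 3), a log2 fold change of -2.76. *Foxf1*, a target in lateral mesoderm, had 19, 22 and 31 counts in the Control (NT) libraries and 2 in each KD-1 library. In each of these the groups do not overlap. *Pax1* and *Foxf1* passed the filter on low counts through Control (NT) alone, so that their calls are no support for a direction of the list. *Nkx3-2*, a further sclerotome factor, was not tested. It had 8, 2 and 11 counts in the Control (NT) libraries and 0 in each KD-1 library. Summed over the group, Control (NT) had 0.187 CPM, and 0 counts in KD-1 allow up to 0.0177 CPM, taking 3 counts as the limit. Their ratio is 10.5, and it leaves out counting error and library spread in Control (NT). *Bmp4*, a target in gut and limb mesenchyme, rose with a log2 fold change of 1.14.

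The ventral neural targets gave no reading, as 0 of 6 passed the filter. *Foxa2*, the floor plate and node factor, had 2, 1 and 1 counts in the Control (NT) libraries and 6, 5 and 9 counts in those of KD-1, and *Nkx2-2*, which marks the most ventral progenitors, had 0 counts in every Control (NT) library. Among 4 genes that Hedgehog restrains or confines to dorsal and lateral domains, *Pax3* and *Pax7* fell with log2 fold changes of -1.09 and -0.67, that of *Pax3* being -1.58 relative to the median of its chromosome 1, and *Pax6* rose by 0.95. Of the 4 growth-related targets, *Mycn* and *Ccnd1*, which drive proliferation downstream of the pathway in neural progenitors, rose with log2 fold changes of 1.73 and 1.24, *Mycn* from 21.6 ± 2.64 to 71.4 ± 1.098 CPM (SD, n = 3). *Ccnd2*, a related cyclin, had 289 ± 29.6 and 220 ± 6.55 CPM (SD, n = 3) in groups that do not overlap, a log2 fold change of -0.39 (edgeR adjusted p = 0.00224) that did not reach the fold threshold. The fit was repeated on genes that had no library under 10 counts. Of the 10 target genes left there, 4 rose and 3 fell, a called share of 70.0% beside 36.2% over all genes so filtered. Their median log2 fold change in that fit was 0.41. In the main fit, with *Pax1* and *Foxf1* included, the median of the 12 tested was -0.06, so its sign differed between the fits. Since the list also holds the 4 genes that Hedgehog restrains or confines, neither the counts nor the median give a direction of the pathway.

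**Figure D4:**
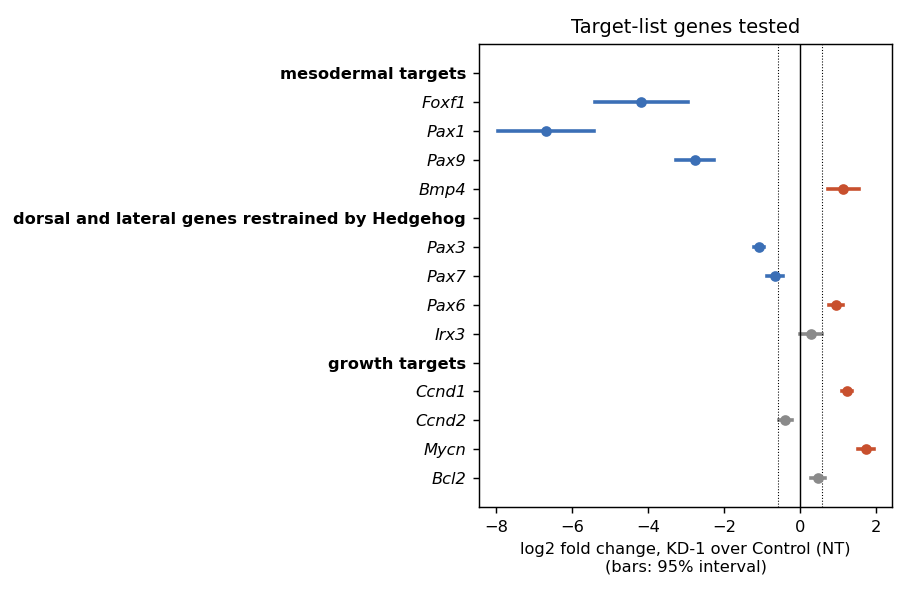
Log2 fold change of KD-1 over Control (NT) with its 95% interval for the 12 target genes tested, by class, with colours and dotted lines as for the pathway genes. *Pax1*, *Foxf1* and *Pax9* lie far to the left, and *Mycn*, *Ccnd1* and *Bmp4* to the right.

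Genes of the primary cilium, the organelle in which Smoothened and the Gli proteins meet, were mostly not called. Of 42 tested, 1 rose, 8 fell and 33 were not called, a called share of 21.4% beside 37.8% over all genes, with a median log2 fold change of -0.22. The largest falls were those of *B9d2* and *Tmem67*, of the transition zone, *Bbs9*, of the BBSome, and *Ift20*, of the intraflagellar transport complex, with log2 fold changes of -1.35, -0.79, -1.0003 and -0.88. *Kifap3*, a subunit of the kinesin that moves cargo outward, rose by 0.68, and lies on chromosome 1, relative to whose median its value was 0.19. *Ift88*, also of the intraflagellar transport complex, had 26.9 ± 0.256 and 26.5 ± 0.347 CPM (SD, n = 3). Its log2 fold change was -0.02 (95% interval -0.16 to 0.12).

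Markers of cell types differed strongly between the groups beside these changes. The summed level of 9 genes of presomitic mesoderm and somites was 439 to 511 CPM in the Control (NT) libraries and 3.45 to 3.82 CPM in the KD-1 libraries, with *Meox1* and *Foxc1* among the genes that fell and *Msgn1* at 3 counts or fewer in every library. Pluripotency genes, 8 of 8 of which rose, summed to 791 to 873 CPM and 2541 to 2634 CPM. Neural genes summed to 155 to 159 and 228 to 235 CPM, with *Sox1* and *Tubb3* among 4 of 7 that rose, whereas *Nes*, the most abundant in Control (NT), had 115 ± 4.58 and 84.7 ± 4.12 CPM (SD, n = 3), a log2 fold change of -0.44 that did not reach the fold threshold. Thus Control (NT) held somitic markers that KD-1 nearly lacked, along with the falls of *Gas1*, *Boc*, *Cdon* and *Pax9*, while pluripotency genes, and neural genes other than *Nes* in sum, were higher where *Gli1* and *Ptch1* were. The part of these cell types in the changes of the Hedgehog genes was not tested.

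Markers of cells that produce Hedgehog ligands in the embryo were read as summed bulk RNA, which does not count cells. The 6 node and notochord genes summed to 8.92 to 13.3 CPM in Control (NT) and 8.20 to 9.21 CPM in KD-1, mostly from *T*, which caudal progenitors share, and *Noto* had 0 counts in every library. Within these sums *Foxj1* rose and *Chrd* fell, with log2 fold changes of 1.94 and -1.27. Endoderm genes summed to 135 to 160 and 261 to 270 CPM, almost all from *Trh*, and the defining *Sox17* did not reach 0.3 CPM in any library. By single-cell RNA-seq the study reported a population labelled anterior primitive streak and definitive endoderm, more represented in KD gastruloids. Its immunofluorescence showed Sox17 protein in both groups. The 6 visceral endoderm genes summed to 0.386 to 0.632 and 0.906 to 1.103 CPM, with *Afp* and *Ttr* at 3 counts or fewer. Caudal progenitor genes gave 56.3 to 63.3 and 53.7 to 58.2 CPM, in which *Cdx1* and *Cdx2* fell and *Nkx1-2* and *Fgf17* rose. Lateral plate and cardiac genes gave 1.53 to 2.12 and 0.311 to 0.690 CPM, and fibroblast genes 3.20 to 3.59 and 0.668 to 0.896. Endothelial and blood genes gave 16.7 to 18.1 and 29.7 to 31.8 CPM, a rise that came from *Pecam1*, which pluripotent cells also express, at 14.5 ± 0.158 and 29.4 ± 1.07 CPM (SD, n = 3), while *Kdr* fell. Ligand transcripts were near the limit of detection in both groups, and the part of these cell types in that was not tested.

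**Figure D5:**
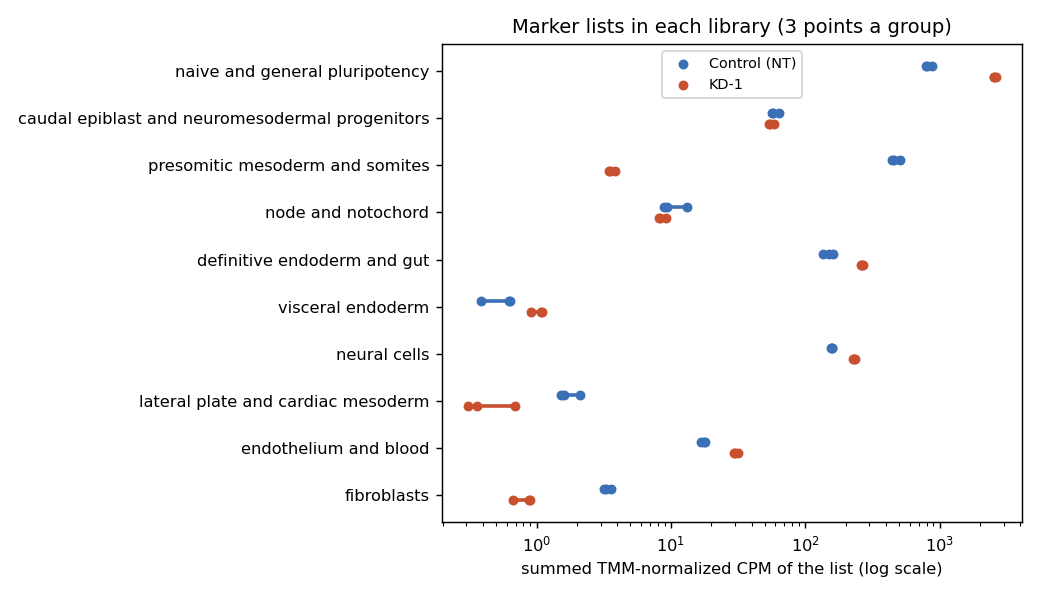
Summed TMM-normalized CPM of each marker list on a log scale, with 3 libraries a group. Presomitic and somite markers are 439 CPM or more in Control (NT) and 3.82 CPM or less in KD-1, and pluripotency markers are higher in KD-1.

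The genes whose levels ran most like those of *Gli1* over the 6 libraries, by Pearson's r of log2(CPM + 0.5) among the 13099 genes tested in which no library had under 10 counts, were *Xlr3a*, *Otx2*, *Zic1*, *Mapk4* and *Enox1*, each at an r of 0.9995 or more. For *Ptch1* they were *Nfatc2ip*, *Apobec3*, *Aldh9a1*, *Manba* and *Ndnf*, at 0.9993 or more. An r over 0.99 was reached by 550 genes with *Gli1* and by 648 with *Ptch1*. Since the points fall into 2 groups, such values mostly record the step between the groups, and they describe likeness only.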

How the data were processed

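RNA of day 5 gastruloids was made into TruSeq libraries, sequenced in pairs on an Illumina instrument, and quantified by the authors with bcl2fastq and Salmon 1.1 on a Gencode gene model. The authors deposited expected counts per gene (Salmon's estimated counts), unnormalized and as whole numbers; genome build, use of strand and rounding are not given in the sources used here. Salmon shares reads among similar or overlapping sequences. Names and positions came from GENCODE vM39 (GRCm39), which matched 35222 of 35565 identifiers.

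Counts were filtered (filterByExpr), TMM-normalized and tested with edgeR 4.0.16 (R 4.3.3; glmQLFit, robust, condition as the only term), with Benjamini-Hochberg adjustment over 15110 genes. In counts simulated for this comparison, 200 genes had a log2 change of 1.5 built in. Of these, edgeR and DESeq2 recovered 200, with 0 false calls, and limma-voom 200 with 5, among 14933, 15110 and 14933 genes. The simulation gave every gene the same dispersion and changed few genes, whereas 37.8% of genes were called in the real data. It therefore checks that the tools run and gives no error rates for these data. Every same-group pair of libraries differed by more than sampling noise (lowest chi-square per degree of freedom, 4.85). Values reached 11.1 within KD-1. The pairs with the middle depth Control (NT) library had 36.3 and 36.5, and the remaining Control (NT) pair had 15.3.

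Alternatives were DESeq2 1.42.0, limma-voom 3.58.1, other scalings, filters and thresholds, an offset for each chromosome's median, each library left out, and other length and level scales. The 9 genes, the gene lists and the tests were chosen with earlier results of these data known. Named genes are the 9 members, up to 4 called rises and 4 called falls of each pathway, target and cilium list, 10 further pathway and target genes, up to 3 marker genes per list, and the 5 most alike genes of *Gli1* and *Ptch1*. Other genes (*Ift88*, *Hhat*, *Nkx2-2*, *Arhgap9*, *Ccnd2*, *Kdr*, the *Cdx* genes, *Nkx1-2*, *Fgf17* and markers at or near 0) were named after their values were seen. Some genes of the pathway lists are counted but not reported here by name.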

Additional observations from a re-analysis of the deposited data

How the results depend on the processing

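*Gli1*, *Gas1*, *Ptch1* and *Smo* kept their directions under all 18 alternatives, and their calls under all except an absolute log2 fold change over 1, which *Ptch1* (0.997) and *Smo* (-0.96) missed narrowly, leaving 1 member called higher and 1 lower. With no fold change threshold *Gli3* (-0.26) counted as called. Its edgeR adjusted p was over 0.05 with library totals only (0.0512) and without the highest depth Control (NT) library (0.0635). It was also over 0.05 without any single KD-1 library (0.0552 to 0.0774). *Gli2* turned negative with the chromosome offset (-0.47) and without the lowest or middle depth Control (NT) library (-0.030 and -0.033), and *Hhip* without the highest depth KD-1 library (-0.017), although neither was called in any of these. Leaving out a library gave log2 fold changes from -0.033 to 0.10 for *Gli2*, -0.017 to 0.20 for *Hhip*, -0.34 to -0.22 for *Gli3*, 1.46 to 1.59 for *Gli1*, 0.98 to 1.02 for *Ptch1*, -1.01 to -0.91 for *Smo* and -1.54 to -1.34 for *Gas1*. An absolute log2 fold change over 1 left 5 pathway genes higher, 0 cilium genes higher and 2 lower, and 1948 genes higher and 1326 lower over the table. Without a fold change threshold there were 17 pathway genes lower, 6 cilium genes higher and 19 lower, and 4676 and 4921 genes over the table. A test against a 1.5-fold change gave 0 cilium genes higher and 3 lower, with 1680 genes lower over the table, the chromosome offset 0 cilium genes higher, and a filter of at least 10 counts in every library 3 target genes lower, since it tests fewer genes. Without the middle depth Control (NT) library 6 cilium genes were lower. *Shh* and *Ihh* were not called by DESeq2 or edgeR without the filter. No paired analysis was possible because the column suffixes (none, 1 and 2) are not the replicate numbers of the labels (1 to 3) and so tie no library to a numbered sample, and the fit with a replicate block was not run. Low counts kept the 3 ligand genes, 6 ventral neural targets and 4 of 8 mesodermal targets from being tested.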
